A study of Mus musculus with 2 samples.

Results

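The Toll-like receptors are pattern-recognition receptors, and 10 of them (Tlr1 to Tlr9 and Tlr13) were followed in liver RNA of mice on a Western diet. Members were taken as every probe set whose single gene symbol in the platform annotation is one of these 10 genes, which gave 16 of 34945 probe sets with a single symbol and covered all 10 of 18193 genes. No probe set with several symbols named a member. Bglu3 congenic mice were compared with C57BL/6 apoE-/- control mice, with 1 Affymetrix array for each group. Both groups are labelled as strain C57BL/6 with hyperglycemia. Animals ate chow from weaning at 3 weeks of age and a Western diet from 6 weeks, for 12 weeks, which gives an age of 18 weeks. The apoE genotype of the congenic mice, the donor strain and ends of their segment, the sex of the animals and the number of mice or pooling behind each array are not stated in the labels.

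Toll-like receptors are membrane proteins with a leucine-rich ectodomain that binds microbial molecules and a cytoplasmic TIR domain that recruits adaptors. Tlr1, Tlr2, Tlr4, Tlr5 and Tlr6 signal from the cell surface in response to lipopeptides, lipopolysaccharide and flagellin, and Tlr3, Tlr7, Tlr8, Tlr9 and Tlr13 sense nucleic acids in endosomes. Myd88 or Ticam1 then carries the signal to NF-kB and interferon regulatory factors. In liver these receptors are best known from Kupffer cells and other leukocytes, and they meet bacterial products that arrive through the portal vein.

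Each deposited value is a linear intensity in arbitrary units. Over all probe sets the congenic array had a median intensity of 19.3 and the control array 19.7, and a probe set counted as passing the filter when it reached its array's median on at least 1 array. Differences are log2(intensity + 5) of the congenic minus the control array, on which 1.5-fold is 0.58; the added 5 makes this scale understate the differences of dim probe sets. The 9 hybridisation control probe sets differed by -0.13 on average, from -0.19 to -0.08, and the actin control gave a 3′/5′ ratio of 1.68 (congenic) and 1.65 (control). With 1 array per group there was no spread between animals, so no difference below has an error, a test or a replicate check, and the precision is limited by the number of arrays. Hepatocyte markers were present on both arrays, with a summed intensity of 66145 on the congenic array against 64495 on the control array over 8 genes, and all 8 lay within 1.5-fold.

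Tlr1 and Tlr4 had the largest differences among receptors that passed the filter, and both were higher on the congenic array, while Tlr2, Tlr5 and Tlr6 were close to even. Of the 16 probe sets, 10 passed the filter, 9 of them on both arrays, and these stood for 8 genes; the probe sets of Tlr6 and Tlr8 stayed below it on both arrays. Of the 10, 2 were higher by 1.5-fold or more and 0 lower, beside 7.22% higher and 6.04% lower among all 20973 probe sets that passed. At any size 7 of the 10 were higher, beside 53.7% of all that passed, and their median difference was 0.33 beside 0.03. None of the 10 reached 2-fold. Both probe sets past 1.5-fold, 1 of Tlr1 and 1 of Tlr4, lay in the second of 4 equal brightness bins, where 7.57% of probe sets were higher by that much.

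**Figure D1:**
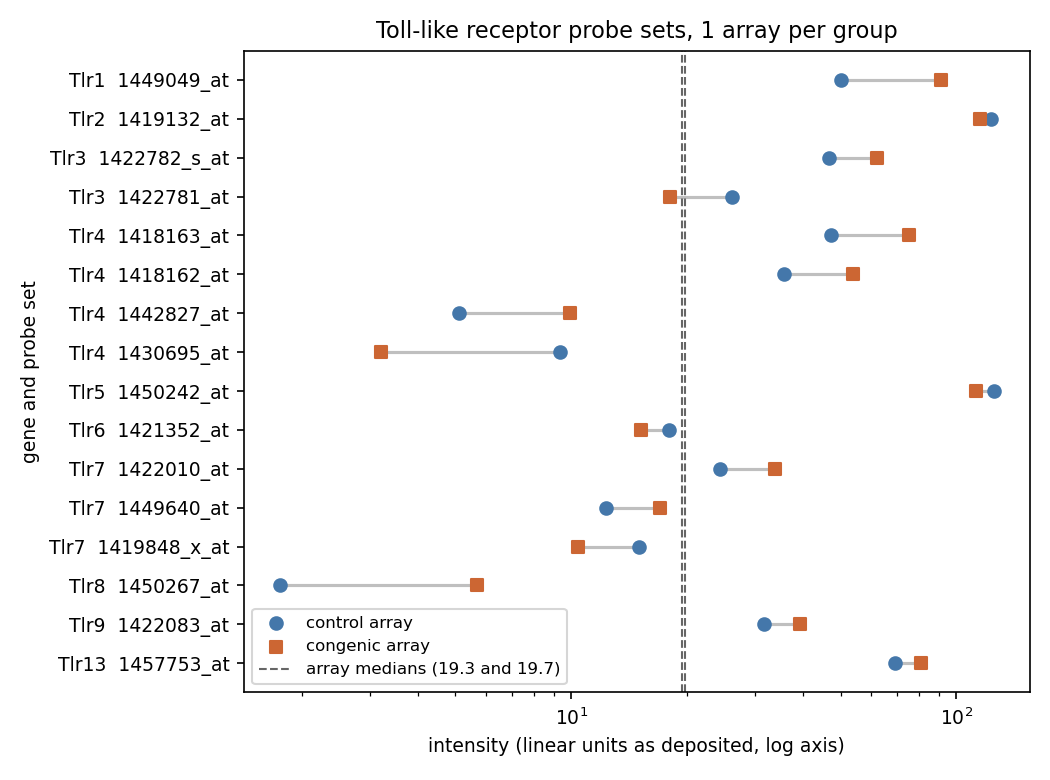
Intensity of each Toll-like receptor probe set on the congenic array (squares) and the control array (circles), on a log axis, with dashed lines at the array medians of 19.3 and 19.7. The values run from 3.21 to 115 on the congenic and from 1.75 to 125 on the control array, and Tlr1 and the brighter pair of Tlr4 probe sets have the squares to the right.

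The lipopeptide and flagellin receptors of the cell surface did not differ alike. Tlr1, which pairs with Tlr2 to bind triacylated lipopeptides, had an intensity of 91.3 on the congenic array against 50.3 on the control array, a ratio of 1.82 and a difference of 0.80 on the log2 scale. Its single probe set had the largest positive difference of the 16 with 5 added, while with nothing added it was 0.86 beside 1.70 for Tlr8 and 0.96 for the dim Tlr4 probe set 1442827_at, both below the filter. Tlr2, the shared partner of these lipopeptide receptors, stood at 115 on the congenic array against 123 on the control array, a difference of -0.09.

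Tlr6, which pairs with Tlr2 to bind diacylated lipopeptides, was dim at 15.2 on the congenic array against 17.9 on the control array, a difference of -0.19. Tlr5, the flagellin receptor, had 112 on the congenic array against 125 on the control array, a difference of -0.15. It is the only member encoded on chromosome 1, the chromosome of the Bglu3 locus, and its difference was within 1.5-fold. Thus the lipopeptide co-receptor Tlr1 was higher on the congenic array by more than 1.5-fold, while its partner Tlr2 and its relative Tlr6 were not.

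Tlr4, the receptor for lipopolysaccharide, was read by 4 probe sets that did not all point the same way. The brightest, 1418163_at, had 75.2 on the congenic array against 47.2 on the control array, a difference of 0.62. The next, 1418162_at, was designed on the same sequence record and had 53.7 on the congenic array against 35.6 on the control array, a difference of 0.53. These were the only Tlr4 probe sets that passed the filter, and they differed from each other by 0.09.

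The other two Tlr4 probe sets were dim and opposed each other. Probe set 1442827_at had 9.92 on the congenic array against 5.1 on the control array, a difference of 0.56. Probe set 1430695_at had 3.21 on the congenic array against 9.37 on the control array, a difference of -0.81. The last is the only member lower by 1.5-fold or more, and it lay at the 14.3rd percentile of the congenic and the 34.1st percentile of the control array. With no filter, 3 of the 16 were higher and 1 lower by that much, beside 8.86% and 9.1% of all 34945 probe sets.

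By their brightest probe sets the 5 nucleic acid receptors of the endosome were each higher on the congenic array, and 4 of them passed the filter. Their median difference was 0.38, with a range from 0.21 to 0.66. The 0.66 is that of Tlr8, which stayed below the filter and alone exceeded 1.5-fold. Tlr3 and Tlr7 each also had a dimmer probe set that was lower, at -0.44 and -0.38, while the third of Tlr7 was at 0.35. For the 5 surface receptors, of which 4 passed the filter, the median was -0.09. Of these 5, 2 were higher, both past 1.5-fold, and 3 were lower. Among the 12613 genes that passed the filter, 7081 were higher and 5529 lower, and their median was 0.04. The share of those genes that lay past 1.5-fold on the higher side was 7.59%. Groups of 5 genes are too few to set against these values. Whether the groups differ could not be tested, since genes of a group are not replicates of a condition.

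Tlr3, which binds viral RNA duplexes and signals through Ticam1, had 62.3 on the congenic array against 46.6 on the control array by probe set 1422782_s_at, a difference of 0.38. Its other probe set, 1422781_at, went the other way with 18.0 on the congenic array against 26.2 on the control array, a difference of -0.44. It passed the filter on the control array alone. The suffix _s_at marks probes that can match several transcripts, so the pair need not read the same RNA.

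Tlr7, a receptor for guanosine- and uridine-rich RNA, had 33.8 on the congenic array against 24.3 on the control array by its brightest probe set, a difference of 0.40. Its other probe sets, 1449640_at and 1419848_x_at, share a sequence record and stayed below the filter. The former had 17.0 on the congenic array against 12.3 on the control array (difference 0.35). The latter, whose suffix marks probes that can bind unrelated transcripts, had 10.4 on the congenic array against 15.0 on the control array (difference -0.38).

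Tlr8, a relative of Tlr7 that lies beside it on chromosome X, had 5.7 on the congenic array against 1.75 on the control array, a difference of 0.66 at the 24.0th and 7.30th percentiles of the arrays. Its size was set by the pseudocount, since it was 0.24 with 20 added and 1.70 with nothing added. Tlr9, the receptor for CpG DNA, had 39.3 on the congenic array against 31.7 on the control array, a difference of 0.27. Tlr13, a rodent receptor for bacterial ribosomal RNA, had 80.8 on the congenic array against 69.4 on the control array, a difference of 0.21. Tlr9 and Tlr13 were thus within 1.5-fold, on the higher side of the congenic array. Of the mouse receptors outside the 10, Tlr12, which binds profilin of protozoa, stood at 50.4 on the congenic array against 50.3 on the control array (difference 0.0018), and Tlr11 was not analysed here.

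**Figure D2:**
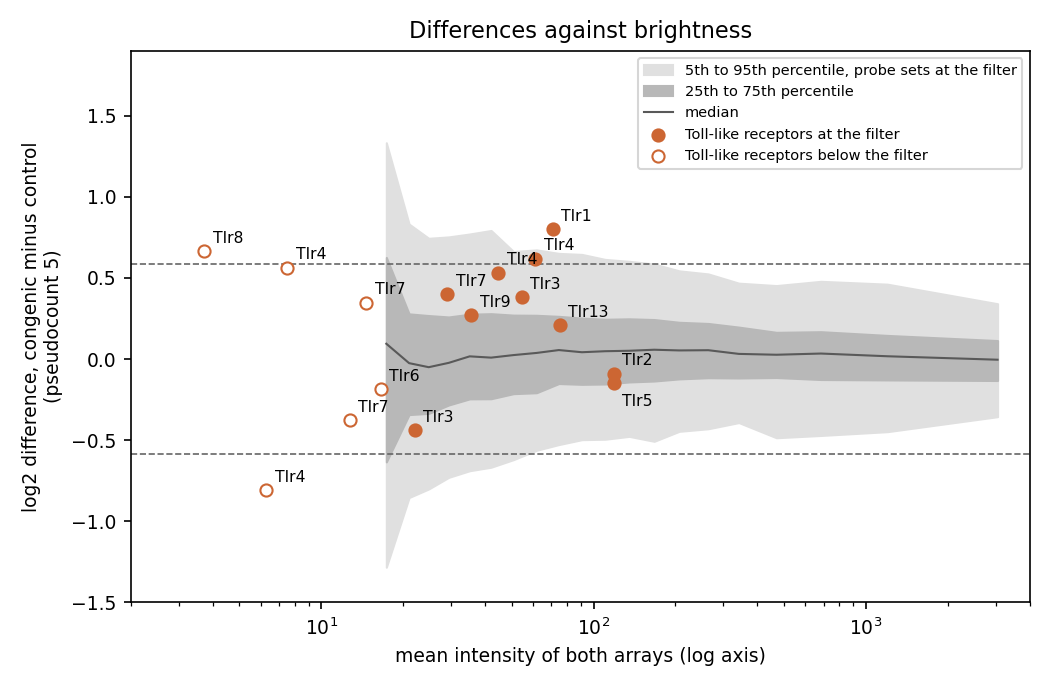
Log2 difference of each Toll-like receptor probe set against its mean intensity over both arrays (log axis), over grey bands that hold the central 50% and 90% of all 20973 probe sets at the filter in 20 brightness bins; dashed lines mark 1.5-fold. Tlr1 at 0.80 lies above the wider band, the brightest Tlr4 probe set at 0.62 lies near its upper edge, and Tlr2 and Tlr5 lie below 0 at the brightest end of the family.

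Probe sets of the same receptor did not always give the same difference. It spanned 1.43 over the 4 probe sets of Tlr4 (0.09 over the pair at the filter), 0.82 over the 2 of Tlr3 and 0.78 over the 3 of Tlr7, and the other 7 genes had 1 probe set each. Over 5189 genes with several probe sets at the filter, probe sets of the same gene scattered with an SD of 0.34, from 0.44 in the dimmest of 4 equal groups, whose brightest probe sets had a mean intensity of up to 98.5, to 0.26 in the brightest group. The gaps of the Tlr4 pair at the filter (0.09) and of the Tlr3 pair (0.82) are distances between 2 probe sets. An SD about the mean of a gene is another measure, so they are not ranked against it. Both genes belong to the dimmest group. All probe sets of such a gene had the same sign in 52.4% of these genes, and in 1 of the 2 receptors with several probe sets at the filter, Tlr4.

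The differences of the 16 probe sets were also taken under 5 other settings. These were 3 scalings (by the median, by quantiles and by a loess curve), a pseudocount of 20 and none. A pseudocount cannot change a sign, and median centring only removes a shift of -0.02, smaller than any of the 16 differences. A sign could thus change only by quantiles or the loess curve, and it did so in none of the 16. Tlr1 stayed past 1.5-fold under all 5, between 0.66 and 0.86. The brightest Tlr4 probe set was under 1.5-fold after quantile normalization (0.58, just below the limit) and with a pseudocount of 20 (0.50). Tlr2 and Tlr5 stayed between -0.15 and -0.07 and between -0.21 and -0.13.

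**Figure D3:**
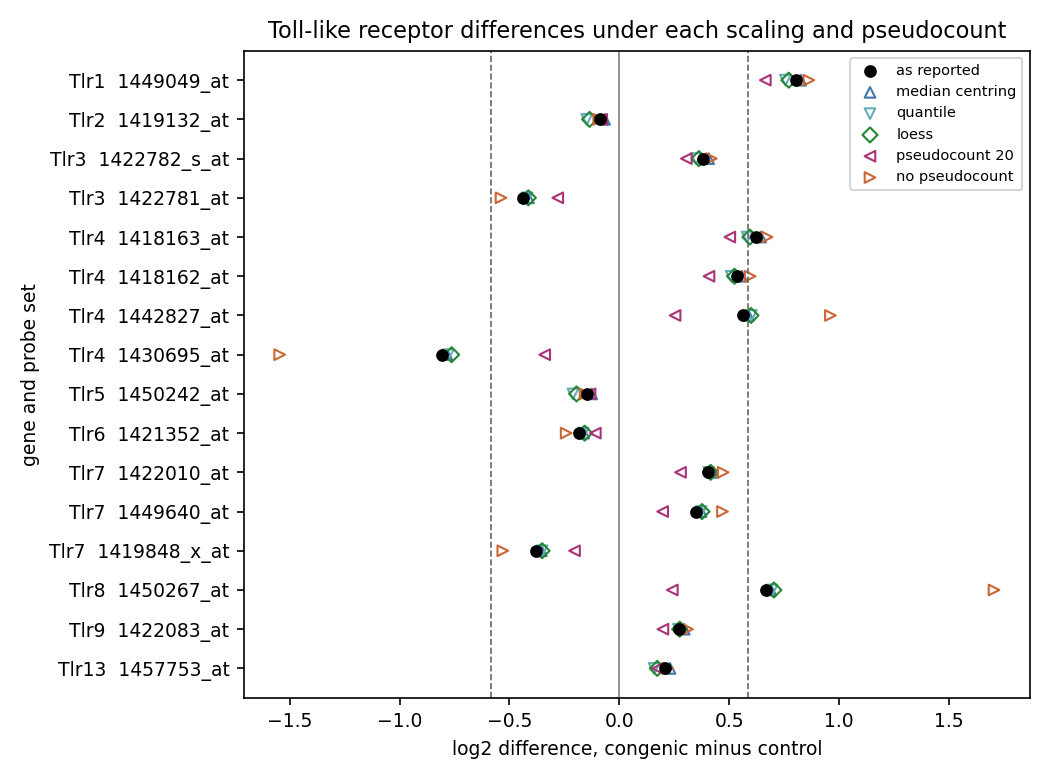
Log2 difference of each Toll-like receptor probe set as reported (filled circles) and under 3 scalings and 2 other pseudocounts (open symbols), with dashed lines at 1.5-fold. The symbols of Tlr1 lie between 0.66 and 0.86, whereas those of Tlr8 spread from 0.24 to 1.70.

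The RefSeq promoter table (GRCm38.p6) held 10 windows for 8 of the 10 genes, each from 250 bases before to 50 after an annotated start; Tlr4 and Tlr7 were not matched. The windows of the receptor with the largest difference (Tlr1, the upstream of its 2 windows), of a pair of endosomal receptors on the higher side (Tlr9 and Tlr13) and of a surface receptor near even (Tlr2) are shown 5′ to 3′. Capitals mark matches on either strand to the core of PU.1, an ETS factor of myeloid and B cells (GAGGAA), or to the first part of an NF-kB site (GGGANTT).
Tlr1 (chr5:64933509-64933808, - strand): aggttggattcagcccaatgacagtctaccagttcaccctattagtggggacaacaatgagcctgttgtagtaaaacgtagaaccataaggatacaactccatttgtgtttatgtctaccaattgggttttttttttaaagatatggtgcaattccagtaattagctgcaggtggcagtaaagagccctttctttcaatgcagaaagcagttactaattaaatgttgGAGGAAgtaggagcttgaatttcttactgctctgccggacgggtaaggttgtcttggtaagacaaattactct
Tlr9 (chr9:106222348-106222647, + strand): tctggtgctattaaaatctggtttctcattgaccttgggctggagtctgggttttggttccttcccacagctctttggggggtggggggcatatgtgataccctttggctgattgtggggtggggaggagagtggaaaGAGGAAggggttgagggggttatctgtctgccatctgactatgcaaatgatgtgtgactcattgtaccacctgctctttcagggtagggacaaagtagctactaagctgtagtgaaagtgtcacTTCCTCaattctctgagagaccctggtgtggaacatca
Tlr13 (chrX:106143025-106143324, + strand): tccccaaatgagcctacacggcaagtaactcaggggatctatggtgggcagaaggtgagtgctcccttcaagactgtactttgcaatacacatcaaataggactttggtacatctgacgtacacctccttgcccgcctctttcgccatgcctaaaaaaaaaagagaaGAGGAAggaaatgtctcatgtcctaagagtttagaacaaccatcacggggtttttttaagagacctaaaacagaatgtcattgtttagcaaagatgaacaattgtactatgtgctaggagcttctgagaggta
Tlr2 (chr3:83841559-83841858, - strand): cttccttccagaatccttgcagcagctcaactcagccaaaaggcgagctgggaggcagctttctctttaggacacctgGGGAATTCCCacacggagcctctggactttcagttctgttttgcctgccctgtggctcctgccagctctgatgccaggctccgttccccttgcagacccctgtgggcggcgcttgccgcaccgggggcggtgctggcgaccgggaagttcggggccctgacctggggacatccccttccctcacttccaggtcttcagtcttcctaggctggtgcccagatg

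The PU.1 core was present in 4 of the 10 windows, 1 each of Tlr1, Tlr8, Tlr9 and Tlr13, beside 28.1% of 32544 distinct promoter windows in the table. It started 23 bases before the annotated start of Tlr1, 83 before that of Tlr13 and 112 before that of Tlr9, which held another match 12 bases after its start. The NF-kB letters were present in 2 of the 10 windows, 1 each of Tlr3 and Tlr2, beside 16.5%, and in Tlr2 the matches of both strands overlap. The Tlr3 window, of a receptor on the higher side by its brightest probe set (0.38), held no PU.1 core. Windows of Tlr5 and Tlr6 held neither motif. The windows shown above thus do not stand for all 8 genes. A match is a description of letters in this window, and the motifs were searched with the differences known.

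Partners and processing enzymes of the receptors were measured in 18 of 19 listed genes, of which 17 passed the filter. By the brightest probe set of each gene, 2 of 17 were higher by 1.5-fold or more and 0 lower, beside 7.59% higher and 5.26% lower among all 12613 genes that passed, and their median difference was 0.16 beside 0.04. Cd14, which hands lipopolysaccharide to Tlr4, had an intensity of 750.5 on the congenic array against 384 on the control array (difference 0.96). Ly86, which with Cd180 forms a complex that modulates responses to lipopolysaccharide, had 1274 on the congenic array against 720.0 on the control array (difference 0.82).

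Cd180 itself, named after its values were seen, had a difference of 0.57, just within 1.5-fold. Ly96, the subunit of the Tlr4 complex that binds lipopolysaccharide, is encoded on chromosome 1 and had 180 on the congenic array against 162 on the control array (difference 0.14). Lbp, the plasma protein that extracts lipopolysaccharide, differed by 0.04, and Unc93b1, the chaperone that brings endosomal receptors to their compartment, by 0.05. The lowest of the list were Ctsk, a cathepsin, at -0.29 and Cd36, a scavenger receptor that assists Tlr2 with Tlr6, at -0.10. Within the lipopolysaccharide complex, Tlr4 and Cd14 were thus higher on the congenic array past 1.5-fold by their brightest probe sets, while Ly96 and Lbp were within 1.5-fold. Cd14 stayed past it under the other scalings and pseudocounts. Tlr4 did not after quantile normalization (0.58) or with a pseudocount of 20 (0.50), and its other probe set at the filter was at 0.53.

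Adaptors were within 1.5-fold. Of 4 measured adaptor genes, 3 passed the filter, too few to set against the 7.59% higher and 5.26% lower of all genes. Ticam1, the adaptor of Tlr3 and of internalised Tlr4, had 148 on the congenic array against 103 on the control array (difference 0.50). Myd88, an adaptor of all these receptors but Tlr3, had 305 and 271 (difference 0.17). Tirap, which bridges Tlr2 and Tlr4 to Myd88, had 137 and 166 (difference -0.27, with another probe set at 0.03).

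Among kinases and ubiquitin ligases below the adaptors, 12 of 13 measured genes passed the filter, 1 was higher by 1.5-fold or more and 0 lower, with a median of 0.22; 1 of 12 is close to the 7.59% of all genes that passed. The one was Btk, a tyrosine kinase of B and myeloid cells that binds several of these receptors, with 111 on the congenic array against 55.3 on the control array (difference 0.94). Tab2, a ubiquitin-binding partner of the kinase Map3k7, followed at 0.46, and Map3k7 itself was at -0.06. Ikbke, a kinase of interferon regulatory factors encoded on chromosome 1, was the lowest at -0.10. Traf6, the ubiquitin ligase recruited by Irak kinases, differed by 0.32 by its brightest probe set, with a range from -1.001 to 0.32 over 4 probe sets at the filter. With the mean over the probe sets of each gene in place of the brightest, the median of this list was 0.06. Irak4 was not analysed here.

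Of 11 measured genes for NF-kB, its activating kinase and interferon regulatory factors, 10 passed the filter and none was past 1.5-fold in either direction (median 0.11). Over all genes that passed, 7.59% were higher and 5.26% lower by that much, so few of 10 would be called at that share. Irf7, the factor of endosomal receptor signalling that induces type I interferon, was highest at 584 on the congenic array against 401 on the control array (difference 0.54). Irf1, induced by interferon gamma, followed at 0.43. Relb, of the alternative NF-kB pathway, was lowest at -0.46, and Rela, the main transactivating subunit, was at -0.07. The median of the list was -0.02 with the mean over the probe sets of each gene.

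Inhibitors of the pathway lay on both sides. All 20 measured genes passed the filter, 2 were higher and 4 lower by 1.5-fold or more, beside 7.59% and 5.26% of all genes, and the median was -0.02, which lay between -0.06 and 0.0069 over the scalings. Pdlim2, which promotes degradation of nuclear Rela, had 67.4 on the congenic array against 35.6 on the control array (difference 0.83). Nfkbie, an NF-kB inhibitor, differed by 0.67.

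On the lower side, Nfkbiz, a nuclear partner of NF-kB that is induced by these receptors, had 337 on the congenic array against 761 on the control array (difference -1.16), but its 3 probe sets ranged from -1.16 to 0.81. Socs1, which curbs cytokine receptor kinases, was at -0.69, Atf3, a stress-induced repressor encoded on chromosome 1, at -0.68 and Bcl3, a nuclear relative of the NF-kB inhibitors, at -0.66. Irak3, the kinase-dead brake on Irak signalling in macrophages, differed by 0.29. Tnfaip3, a deubiquitinating enzyme that ends NF-kB activation, differed by -0.0025 by its brightest probe set and by 1.01 by its other one.

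**Figure D4:**
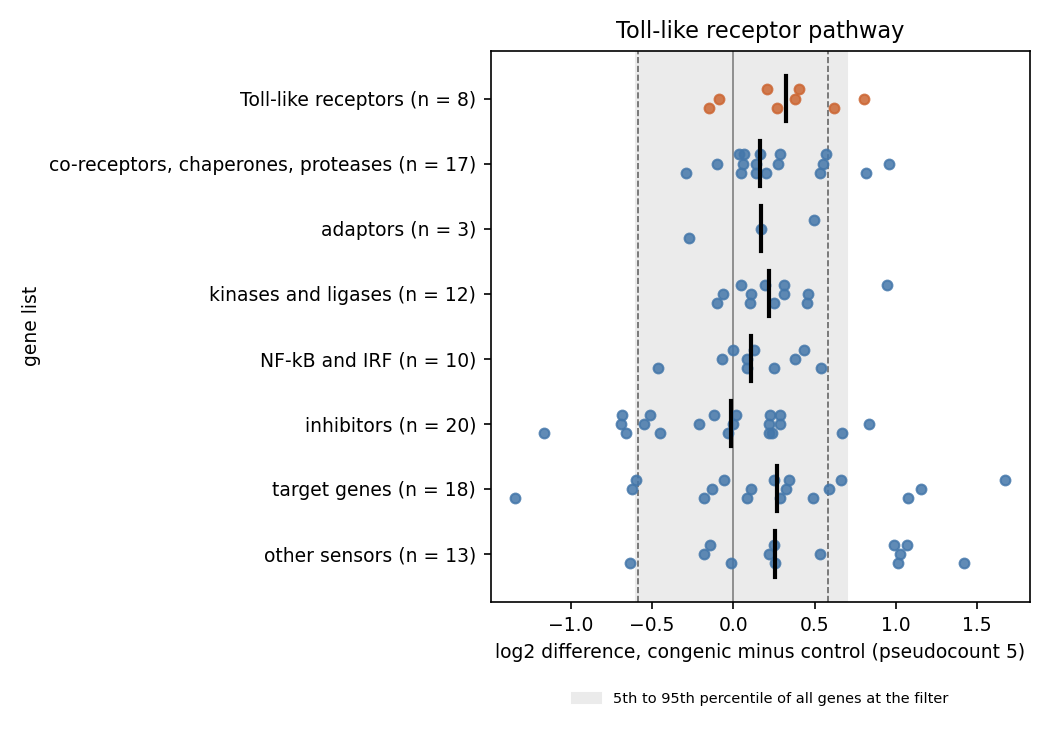
Log2 differences of genes of the Toll-like receptor pathway at the filter, by the brightest probe set of each gene (points), with the median of each list (black bar), 1.5-fold (dashed) and the 5th to 95th percentile of all 12613 genes at the filter (grey). The 8 receptors at the filter have a median of 0.33, and inhibitors and target genes extend to both sides.

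Genes commonly induced through these receptors were also split. Of 25 measured target genes, 18 passed the filter, 5 were higher and 3 lower by 1.5-fold or more, beside 7.59% and 5.26% of all genes that passed, and the median was 0.27. Among the 16 that passed on both arrays, 3 were higher and 3 lower, beside 5.75% and 3.3% of the 11572 genes that passed on both. Lcn2, an iron-chelating protein of the acute phase and of neutrophil granules, was among the higher at 8590.0 on the congenic array against 3853 on the control array (difference 1.16). Cd80, a costimulatory ligand of antigen-presenting cells, had the largest difference at 27.7 on the congenic array against 5.26 on the control array (1.67), and like Il12b, a cytokine subunit, it passed the filter on the congenic array alone, so it had to differ.

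Of the chemokines that attract neutrophils, the list held Cxcl1 and Cxcl2. Cxcl1 had 646 on the congenic array against 1644 on the control array (difference -1.34), with -1.22 as the smallest difference of its 3 probe sets. Cxcl2 had 46.2 and 73.7 (difference -0.62), which was within 1.5-fold with a pseudocount of 20 (-0.50). Il1b, the precursor of a pyrogenic cytokine, had 188 on the congenic array against 132 on the control array (difference 0.49). Tnf, the classical product of Tlr4 signalling in macrophages, stayed below the filter at 6.42 on the congenic array against 13.6 on the control array. With a pseudocount of 20 the counts of target genes were 3 higher and 1 lower.

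Other innate sensors, measured in 13 of 16 listed genes that all passed the filter, gave 5 higher and 1 lower by 1.5-fold or more, with a median of 0.26. The share over all genes that passed was 7.59% higher and 5.26% lower. Pycard, the adaptor that assembles inflammasomes, had 271 on the congenic array against 98.3 on the control array (difference 1.42). Nlrp3, a sensor whose expression is primed through Toll-like receptors, had 67.7 and 30.8 (difference 1.02), and Casp1, the protease that inflammasomes activate, 203 and 100.1 (difference 0.99). Aim2, an inflammasome sensor of DNA encoded on chromosome 1, was within 1.5-fold at 0.53 and passed the filter on the congenic array alone. Zbp1, a sensor of nucleic acids, was at 1.01 and Sting1, the adaptor of cytosolic DNA sensing, at 1.07, the latter above the filter on the congenic array alone. Clec4e, a receptor for mycobacterial glycolipid, was the lowest at -0.63, and Mavs, the adaptor of the RNA helicase sensors, was at -0.18.

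Markers of leukocytes that carry these receptors are given beside 7.59% higher and 5.26% lower of all genes that passed the filter, with a median of 0.04. Of 15 Kupffer cell and macrophage markers, 8 were higher by 1.5-fold or more and 0 lower, with a median difference of 0.74 and a summed intensity of 30691 on the congenic array against 22325.5 on the control array. All 15 passed the filter on both arrays and none was at the repeated low value of 1. Marco, a scavenger receptor encoded on chromosome 1, and Timd4, a phosphatidylserine receptor, differed by 1.85 and 1.66. Csf1r, the receptor for macrophage colony-stimulating factor, differed by 0.93. By its brightest probe set only Tlr1 of the 10 receptors reached the median of this list. Their part in the receptor differences was not tested, and in whole liver RNA more cells of a type and more RNA per cell cannot be told apart.

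Of 11 neutrophil markers, 8 were higher and 0 lower by 1.5-fold or more, with a sum of 4292 on the congenic array against 1373 on the control array and a median of 1.61. Camp, a granule peptide gene with the largest value (3.78), and the granule genes Prtn3, Mpo and Ltf passed the filter on the congenic array alone and so had to differ. Among the 7 neutrophil markers that passed on both arrays, 4 were higher, with a median of 0.92. Of all 11572 genes that passed on both arrays, 5.75% were higher and 3.3% lower. Monocyte and recruited macrophage markers gave 2 higher and 1 lower of 8, with sums of 2319.8 and 1957, among them the chitinase-like Chil3 at 2.02 and Gpnmb, of lipid-laden macrophages, at -1.20. B and plasma cell markers gave 5 higher and 2 lower of 8 at the filter, with sums of 1325 and 658 over the 10 measured, and ranged from -1.30 for the B cell factor Pax5, which passed on the control array alone, to 2.87 for Jchain. Among the 6 that passed on both arrays, 4 were higher and 1 lower, with a median of 1.31 in place of 0.76. T and NK cell markers gave 4 higher and 0 lower of 6 at the filter, with sums of 350 and 210.5 over 10 measured, led by Nkg7 (1.05).

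Dendritic cell markers gave 1 higher and 2 lower of 6 at the filter, with sums of 1585.5 and 1523 over 9 measured. Among the 4 that passed on both arrays, 0 were higher and 1 lower. Over all genes the shares were 7.59% higher and 5.26% lower at the filter, and 5.75% and 3.3% on both arrays. At any size 4 of the 6 were higher and 2 lower. The 2 lower were Cd209a at -1.49, which passed on the control array alone, and Zbtb46 at -0.85. Siglech, a marker of plasmacytoid cells, stayed below the filter at 4.93 on the congenic array against 19.3 on the control array. Endothelial markers gave 0 higher and 1 lower of 10 (Lyve1, -0.64; sums 4415 and 4166), stellate cell markers 5 higher and 0 lower of 10 (led by Rgs5 at 1.14; sums 9073 and 7070) and cholangiocyte markers 0 past 1.5-fold of 5 (sums 164 and 187). Rgs5 is encoded on chromosome 1, and its 4 probe sets at the filter ranged from 0.40 to 2.84. At any size 8 of the 10 stellate markers were higher and 2 lower, with a median of 0.52. With the mean over the probe sets of each gene, 3 were higher by 1.5-fold or more and the median was 0.14. No marker of these lists was at the low value of 1. Their part in the receptor differences was not tested either.

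**Figure D5:**
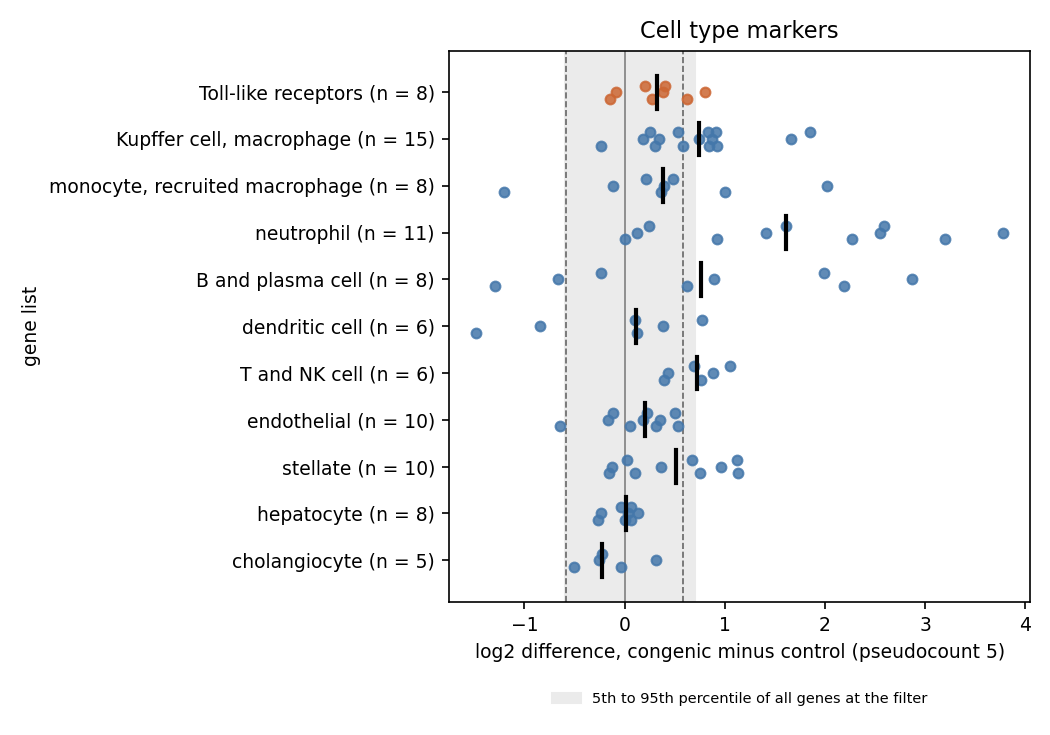
Log2 differences of cell type markers at the filter, by the brightest probe set of each gene (points), with list medians (black bars), 1.5-fold (dashed) and the 5th to 95th percentile of all genes at the filter (grey), below the Toll-like receptors. The Kupffer cell and macrophage median is 0.74 and the hepatocyte median 0.02, and the receptor median of 0.33 lies between them.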

How the data were processed

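Liver total RNA (8 µg per labelling, per the labels' protocols) of 2 groups was hybridised to Affymetrix arrays, 1 per group. The deposited table gives 1 linear intensity for each of 45101 probe sets and array; the authors' summarization and scaling are not stated in the labels. Intensities were used as deposited, with medians differing by -0.02 on the log2 scale. Control probe sets (64) were left out; of the others 932 had several gene symbols and 9160 had none in the platform annotation and were not named. RefSeq tables of GRCm38.p6 gave chromosomes, gene order, synonyms and promoters.

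Log2 differences used a pseudocount of 5 and sizes of 1.5-fold. The filter was the 50th percentile of an array. The 4 brightness bins hold equal numbers of probe sets at the filter. A gene was represented by its probe set with the highest mean. Of 118 listed pathway genes 105 had a probe set, as did 96 of 105 markers. Named genes are all members, the 2 highest and 2 lowest of each pathway list, members past 1.5-fold of lists with 6 or fewer, 16 genes fixed by name, and up to 3 markers per cell type. Cd180, Aim2, Il12b, the neutrophil marker Ltf and the genes beside the receptors were named outside these rules. No gene was chosen by likeness of pattern, since 2 arrays give 1 difference per gene. Members and lists were chosen with earlier results of these data known. The procedure was tested on simulated arrays, with planted differences larger than 2-fold and only in brighter probe sets. That run does not show how well differences near 1.5-fold are called in dim probe sets. Python 3.11.15, pandas 2.3.3 and statsmodels 0.14.6 were used.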

Additional observations from a re-analysis of the deposited data

How the results depend on the processing

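With 1 array per group, no animal could be left out and no spread estimated, so these settings show only how the arithmetic moves the values. No paired analysis was possible because each group has 1 array and no result comes from a test. The count of 2 receptor probe sets higher by 1.5-fold was 1 after quantile normalization and 1 with a pseudocount of 20, 3 with no pseudocount, and 0 at 2-fold or with a filter at the 75th percentile, which leaves 2 probe sets (Tlr2 and Tlr5) and a median of -0.12 in place of 0.33. The share higher over all probe sets that passed was 7.22% as reported. It was 6.76% after quantile normalization, 3.84% with a pseudocount of 20 and 8.64% with none. At 2-fold it was 1.88%, and with the filter at the 75th percentile 4.525%. Without a filter 3 were higher and 1 lower. Of 94 pathway genes at the filter, 15 were higher and 8 lower, beside 7.59% and 5.26% of all genes that passed. These lists gave 9 and 5 under the filter at the 75th percentile, 7 and 2 at 2-fold, and 4 lower with a pseudocount of 20. Of 87 markers at the filter, 33 were higher and 6 lower, and these lists gave 17 and 3 at 2-fold. Under the filter at the 75th percentile 3 markers were lower. Over all probe sets that passed, 1.88% were higher and 1.55% lower by 2-fold. A larger size or a stricter filter can only lower such counts. The median of -0.12 is that of Tlr2 (-0.09) and Tlr5 (-0.15), so its sign is not set by the number of probe sets. Adding 20 in place of 5 makes differences smaller by arithmetic, above all those of dim probe sets. For the scalings the cause was not tested. Of the other values, 590 of 647 stayed within a tolerance that was wide for medians. It allowed a change of sign in the adaptor median, from 0.17 to -0.05 with probe sets of the plain suffix _at alone. It also allowed the stellate median to fall from 0.52 to 0.19 under that setting. With the mean over probe sets in place of the brightest, the stellate median was 0.14, which was outside the tolerance. Under the mean the kinase and ligase median fell from 0.22 to 0.06. The median of NF-kB and interferon regulatory factors fell from 0.11 to -0.02, and both stayed within the tolerance. Counts of 0 that stayed 0 are among the 590. Dim probe sets, as those of Tlr8 and the dimmest of Tlr4, have sizes that the pseudocount sets (for Tlr4 1430695_at from -1.55 to -0.34).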

Other observations

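The genes beside the receptors on their chromosomes, by order in the RefSeq gene table and by brightest probe set, gave values that belong to no comparison above. Tlr1 and Tlr6 are neighbours on chromosome 5. Klf3, a zinc finger repressor on the Tlr1 side, had a difference of 0.41, and on the Tlr6 side Fam114a1 had 0.17 and Tmem156 0.70, so Tlr6 at -0.19 was the only one of these 5 genes below 0. Gm3716, beyond Klf3, was below the filter at -0.0065. Tlr5 on chromosome 1 lies between Susd4, a complement regulator, at -0.46 and Disp1, which releases Hedgehog ligands, at 0.25. Beyond Susd4, Ccdc185 was at -0.73 and passed the filter on the control array alone, and beyond Disp1, Brox was at 0.27. Next to Tlr4 on chromosome 4, Trim32, a ubiquitin ligase, differed by -0.10. On the other side of Tlr4, beyond Brinp1 (below the filter), Cdk5rap2 was past 1.5-fold at 0.86. Of the neighbours of Tlr2, Tlr3, Tlr9 and Tlr13 that passed the filter, only Poc1a, near Tlr9, was past 1.5-fold. It was at -0.86 and passed on the control array alone. On chromosome X, Tlr8 and Tlr7 lie between the thymosin gene Tmsb4x (0.30) and Prps2, a nucleotide synthesis enzyme (0.26).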
